A study of Homo sapiens with 6 samples.

Results

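Tissue factor starts blood clotting at the cell surface, and the plasminogen activators start the breakdown of clots and of matrix. The 8 genes described here cover both. They are F3 (tissue factor), its inhibitor TFPI, the related inhibitor TFPI2, the anticoagulant thrombomodulin (THBD), the plasminogen activators PLAU (urokinase) and PLAT (tissue type), the urokinase receptor PLAUR and the protease inhibitor SERPINE2. They were taken by gene symbol, 1 row each, from a table of 60589 genes, and the set was chosen by the TPM of these genes in the libraries compared below. Their fold changes and calls are therefore a description and no independent support.

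RNA was sequenced from SNU449, an established human hepatocellular carcinoma line, at day 3 after treatment with an siRNA against MAD2L1 (siMAD2L1, 3 libraries) or with a control siRNA (siControl, 3 libraries). MAD2L1 encodes a protein of the spindle assembly checkpoint, and the comparison sets cells with its knockdown against control cells. All 6 libraries came from 1 cell line in the same medium, and the labels name no other allele or agent. The titles name MAD2L1 for all 3 siMAD2L1 libraries, but the treatment field names it for replicate 1 only and gives MAD2L2 and MAD2L3 for replicates 2 and 3. The labels do not say whether the replicates are separate cultures, so the p-values below cover only differences among these libraries, which may be technical.

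Values are TPM, which scale read numbers by gene length and library total, so levels can be compared between genes but the depth of each library is unknown. MAD2L1 itself measured 4.47, 0.795 and 2.40 TPM in siMAD2L1 replicates 1, 2 and 3, against 14.5, 13.7 and 13.9 TPM in siControl. No siMAD2L1 library reached the siControl range (log2 fold change -2.22, SE 0.357, limma adjusted p = 0.0105), although the adjusted p was 0.0597, 0.0547 and 0.0572 without siControl replicate 1, 2 or 3. On the second principal component siMAD2L1 replicate 1 scored 40.0, against -24.7 and -11.9 for siMAD2L1 replicates 2 and 3, so results that lean on it are given without it as well. Mitochondrially encoded genes took 9.21% to 10.9% of the TPM in siMAD2L1 and 15.2% to 15.3% in siControl. Of 9 hepatocyte markers 2 had a mean of at least 1 TPM, and albumin (ALB) stayed at or below 0.451 TPM in every library, so the labelled liver origin showed little of the hepatocyte program. Of 8 endothelial markers none reached a mean of 1 TPM, and their sum was 0.868 to 1.45 TPM in siMAD2L1 and 1.24 to 2.22 TPM in siControl.

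As background, tissue factor is a transmembrane receptor for factor VIIa, and their complex activates factors IX and X. TFPI is a Kunitz-type inhibitor that shuts this complex down. TFPI2 belongs to the same family but acts mainly on plasmin, trypsin and related proteases. Thrombomodulin binds thrombin and turns it from a clotting enzyme into an activator of protein C. Urokinase and tissue-type plasminogen activator each cleave plasminogen to plasmin. The urokinase receptor, held in the membrane by a lipid anchor, concentrates urokinase at the cell surface. SERPINE2, also called protease nexin, is a serpin that inhibits thrombin and both plasminogen activators. Hepatocytes make plasminogen, fibrinogen and most circulating clotting factors, whereas tissue factor and the urokinase system are known for their expression in invasive tumour cells.

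RefSeq promoter windows (GRCh38.p14, from upstream of a transcription start to just after it) were found for 6 of the 8 genes, in 8 windows. PLAT and THBD were not searched. The windows were searched on both strands for the AP-1 letters TGANTCA, the NF-kB letters GGNNTTTCC, the Sp1 letters GGGCGG, the EGR1 letters GCGNGGGCG and the TATA letters TATAAA. F3 is shown because its window held matches to all 5 motifs, and TFPI2 and PLAUR because each held 1 AP-1 match. TFPI is shown beside TFPI2, its relative, as a window without any of the 5. Capitals mark AP-1 and NF-kB matches, read 5′ to 3′ on the gene's strand. The stretches leave out bases that GENCODE 29 places in an untranslated region, except the short ones of TFPI2 and PLAUR, which lie within one of a transcript with an earlier start.
F3, chr1:94541801-94542009, minus strand, positions -250 to -42 from the start: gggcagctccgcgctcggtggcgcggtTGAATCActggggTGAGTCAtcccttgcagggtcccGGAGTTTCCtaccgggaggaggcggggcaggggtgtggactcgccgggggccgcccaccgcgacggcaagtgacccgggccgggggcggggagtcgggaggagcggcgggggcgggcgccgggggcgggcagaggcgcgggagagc
TFPI2, chr7:93890823-93890851, minus strand, positions -98 to -70: gtccccgtgcaTGAATCAgccacccctca
PLAUR, chr19:43670338-43670366, minus strand, positions -197 to -169: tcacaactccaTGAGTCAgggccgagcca
TFPI, chr2:187554493-187554685, minus strand, positions -250 to -58: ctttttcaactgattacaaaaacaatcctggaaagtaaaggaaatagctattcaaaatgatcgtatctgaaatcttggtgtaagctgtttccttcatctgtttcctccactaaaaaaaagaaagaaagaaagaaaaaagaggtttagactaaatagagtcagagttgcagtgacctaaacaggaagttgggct

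AP-1 letters occurred in 7.71% of all 35116 windows and NF-kB letters in 6.26%. Sp1 letters occurred in 44.95%, EGR1 letters in 9.43% and TATA letters in 11.5%. The F3 window held AP-1 matches at -223 to -217 and at -210 to -204 from the start, and its NF-kB match lay at -187 to -179. It also held 4 Sp1 matches, of which 1 overlapped the EGR1 match at -82 to -74, and a TATA match on the opposite strand. The TFPI2 window held 2 Sp1 matches, 1 of them overlapping its EGR1 match, and the PLAUR window held an EGR1 match and no Sp1 match. No AP-1 or NF-kB match was found in the 2 windows of PLAU, the 2 of SERPINE2 or the window of TFPI. A match describes letters in a window and no factor binding was measured.

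F3 stands on the minus strand of chromosome 1 (94529225 to 94541800, GRCh38), TFPI on the minus strand of chromosome 2 (187464230 to 187565760) and SERPINE2 on the same chromosome and strand (223975112 to 224039319). TFPI2 lies on the minus strand of chromosome 7 (93885396 to 93890991), PLAU on the plus strand of chromosome 10 (73909177 to 73917497) and PLAUR on the minus strand of chromosome 19 (43646095 to 43670547). PLAT is on the minus strand of chromosome 8 (42175233 to 42207724) and THBD, a gene with 1 exon, on the minus strand of chromosome 20 (23045633 to 23049741). PLAU shares 916 exonic bases with C10orf55 on the opposite strand. The strand setting of the counting is not given in the sources used here, so it is unknown whether their reads were told apart. Under that same unknown setting C10orf55 was listed at 0.398, 0.211 and 0.063 TPM in siMAD2L1 and 0.506, 0.486 and 0.384 TPM in siControl. TFPI shares 118 exonic bases with the antisense transcript AC007319.1, which measured 4.62 to 5.06 TPM in siMAD2L1 and 5.57 to 6.42 TPM in siControl.

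In siMAD2L1 cells F3, TFPI2 and PLAUR rose and PLAU fell. TFPI, PLAT and SERPINE2 did not pass, and THBD lay under the filter on low values. Genes with a mean of at least 1 TPM over the 6 libraries were tested (14790), with limma on log2(TPM + 1) and calls at a Benjamini-Hochberg adjusted p under 0.05. Of the 7 members tested 3 were called higher, where 3.55% of all tested genes were, and 1 lower, where 6.23% were (9.78% in either direction). The groups did not overlap at 5 of these 7, against 32.8% of all tested genes, and not at THBD either. The median log2 fold change was 0.42 over the 7 and -0.08 over all tested genes. The members were chosen on this same comparison, so these counts show nothing particular to them. In bulk RNA, a change in how many cells make a transcript and a change in RNA per cell cannot be told apart.

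**Figure D1:**
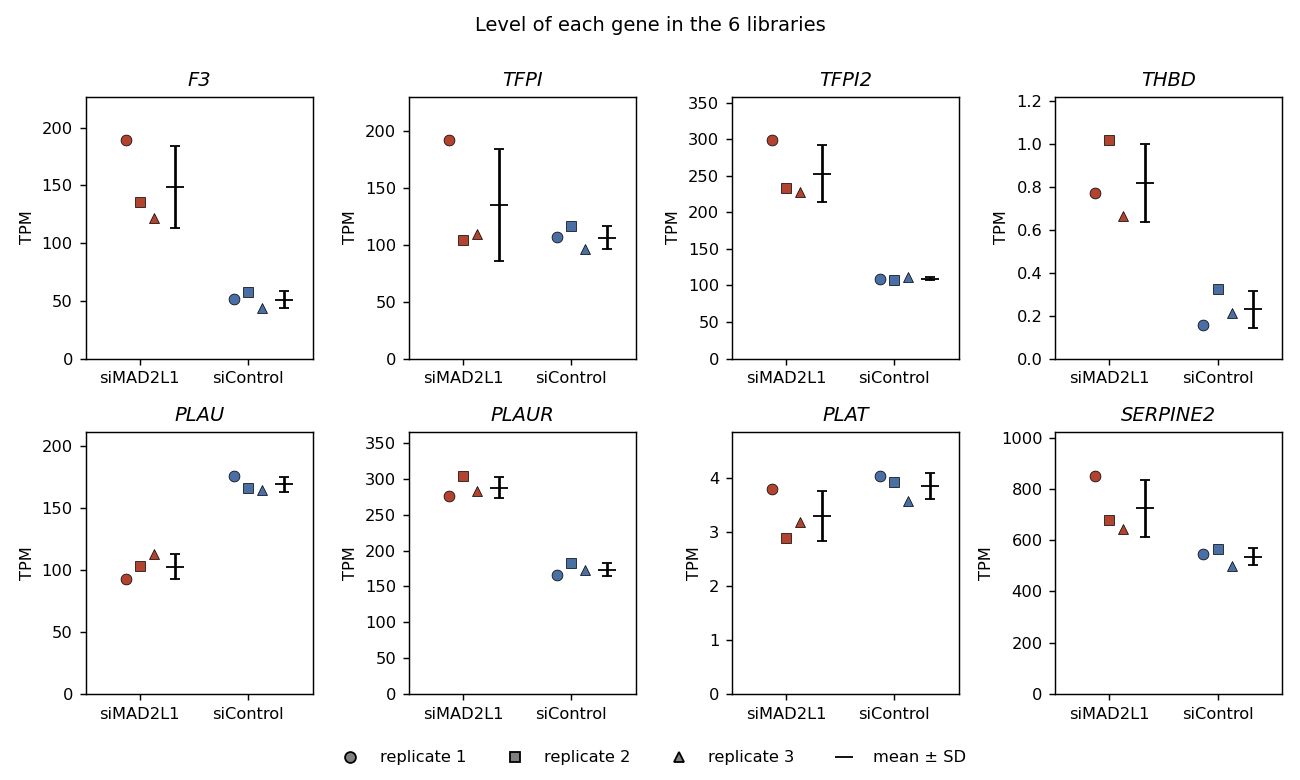
TPM of the 8 genes in each library, with siMAD2L1 left of siControl in every panel. Symbols are replicates, and the bar beside them is the mean with SD (n = 3). F3, TFPI2, PLAUR, SERPINE2 and THBD lie higher in every siMAD2L1 library and PLAU lower, while TFPI and PLAT overlap.

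F3, the receptor that starts clotting, measured 189, 136 and 122 TPM in siMAD2L1 replicates 1, 2 and 3, against 51.9, 57.9 and 43.6 TPM in siControl. Every siMAD2L1 library stood above every siControl library, and replicate 1 was the highest. The mean was 149 ± 35.5 TPM in siMAD2L1 and 51.1 ± 7.2 TPM in siControl (SD, n = 3 each), a ratio of 2.91. On the log2 scale the change was 1.51 (SE 0.173, limma adjusted p = 0.00324), rank 103 by size among the tested genes. Without siMAD2L1 replicate 1 it was 1.32 (adjusted p = 0.00264). By level F3 stood at percentile 93.9 of the tested genes in siMAD2L1 and at percentile 82.6 in siControl.

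TFPI2, the relative of TFPI that acts on plasmin, measured 299, 233 and 227 TPM in siMAD2L1 and 109, 107 and 112 TPM in siControl. Every siMAD2L1 library stood far above the siControl libraries, which lay close together. Means were 253 ± 39.6 TPM in siMAD2L1 and 109 ± 2.51 TPM in siControl (SD, n = 3 each), with a log2 fold change of 1.19 (SE 0.110, limma adjusted p = 0.00160). Without siMAD2L1 replicate 1 it was 1.07 (adjusted p = 0.00111).

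TFPI, the direct inhibitor of the tissue factor complex, did not follow. It measured 191, 104 and 109 TPM in siMAD2L1 and 106, 116 and 95.9 TPM in siControl. Only siMAD2L1 replicate 1 stood outside the siControl range. On the log2 scale the difference was 0.29 (SE 0.217, limma adjusted p = 0.443). It was 0.01 without siMAD2L1 replicate 1 (adjusted p = 0.951) and 0.85 for that library alone against the controls (adjusted p = 0.0331), so the value rests on that library.

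THBD, the thrombin receptor that serves anticoagulation, was the lowest of the 8. It measured 0.772, 1.02 and 0.664 TPM in siMAD2L1 and 0.154, 0.323 and 0.213 TPM in siControl, and the groups did not overlap. Its mean over the 6 libraries was under the filter. With no filter the log2 fold change was 0.56 (SE 0.132) and did not pass (limma adjusted p = 0.101). That value understates the ratio of the means, 3.56, because the added 1 outweighs levels this low.

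PLAU, urokinase, fell. It measured 92.5, 103 and 113 TPM in siMAD2L1 and 176, 166 and 164 TPM in siControl, with every siMAD2L1 library below every siControl library. The mean was 103 ± 9.99 TPM in siMAD2L1 and 169 ± 6.23 TPM in siControl (SD, n = 3 each), with a log2 fold change of -0.72 (SE 0.0890, limma adjusted p = 0.00430).

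PLAUR, the receptor of urokinase, moved the other way. Its levels were 277, 305 and 283 TPM in siMAD2L1 and 165, 183 and 172 TPM in siControl. The lowest siMAD2L1 library was above the highest siControl library, and the spread within each group was small. Means were 288 ± 14.7 TPM in siMAD2L1 and 174 ± 8.91 TPM in siControl (SD, n = 3 each), with a log2 fold change of 0.73 (SE 0.0742, limma adjusted p = 0.00207).

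PLAT, the tissue-type activator, was low throughout. It measured 3.81, 2.90 and 3.19 TPM in siMAD2L1 and 4.05, 3.94 and 3.58 TPM in siControl. The groups overlapped (log2 fold change -0.18, SE 0.170, limma adjusted p = 0.546). PLAU thus outweighed PLAT in every library, and the ratio of PLAT to PLAU by TPM was 0.0325 ± 0.00744 in siMAD2L1 and 0.0228 ± 0.000956 in siControl (SD, n = 3 each).

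SERPINE2, the inhibitor of thrombin and of both activators, was the most abundant of the 8. It measured 852, 678 and 643 TPM in siMAD2L1 and 548, 564 and 498 TPM in siControl. The groups did not overlap, yet the gene did not pass (log2 fold change 0.42, SE 0.112, limma adjusted p = 0.0534). It passed without siMAD2L1 replicate 1, at a log2 fold change of 0.30 (adjusted p = 0.0352), and in 5 others of the 19 settings tried, such as upper-quartile scaling (0.47, adjusted p = 0.0246), so its call turns on the setting.

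Since TPM is per length, the genes can be ordered by level. In siMAD2L1 the order of means was SERPINE2 (724 TPM), PLAUR (288), TFPI2 (253), F3 (149), TFPI (135), PLAU (103), PLAT (3.30) and THBD (0.818). In siControl it was SERPINE2 (536 TPM), PLAUR (174), PLAU (169), TFPI2 (109), TFPI (106), F3 (51.1), PLAT (3.85) and THBD (0.230). In siMAD2L1 the library ranges overlapped between the neighbours PLAUR and TFPI2, F3 and TFPI, and TFPI and PLAU. In siControl they overlapped between PLAUR and PLAU, and between TFPI2 and TFPI.

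Ratios of TPM within a library put partner genes side by side. PLAU stood at 0.335, 0.339 and 0.397 of PLAUR in siMAD2L1 and at 1.06, 0.908 and 0.954 of PLAUR in siControl. In each siMAD2L1 library the receptor transcript outnumbered its ligand, whereas in siControl both were near parity. F3 over TFPI was 0.988, 1.30 and 1.12 in siMAD2L1 and 0.488, 0.499 and 0.454 in siControl, with no overlap. F3 over TFPI2 was 0.634, 0.583 and 0.536 in siMAD2L1 and 0.477, 0.541 and 0.389 in siControl, and these ranges overlapped. SERPINE2 over PLAU averaged 7.16 ± 1.82 in siMAD2L1 and 3.18 ± 0.190 in siControl (SD, n = 3 each). These ratios restate levels that chose the genes and were given no test.

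**Figure D2:**
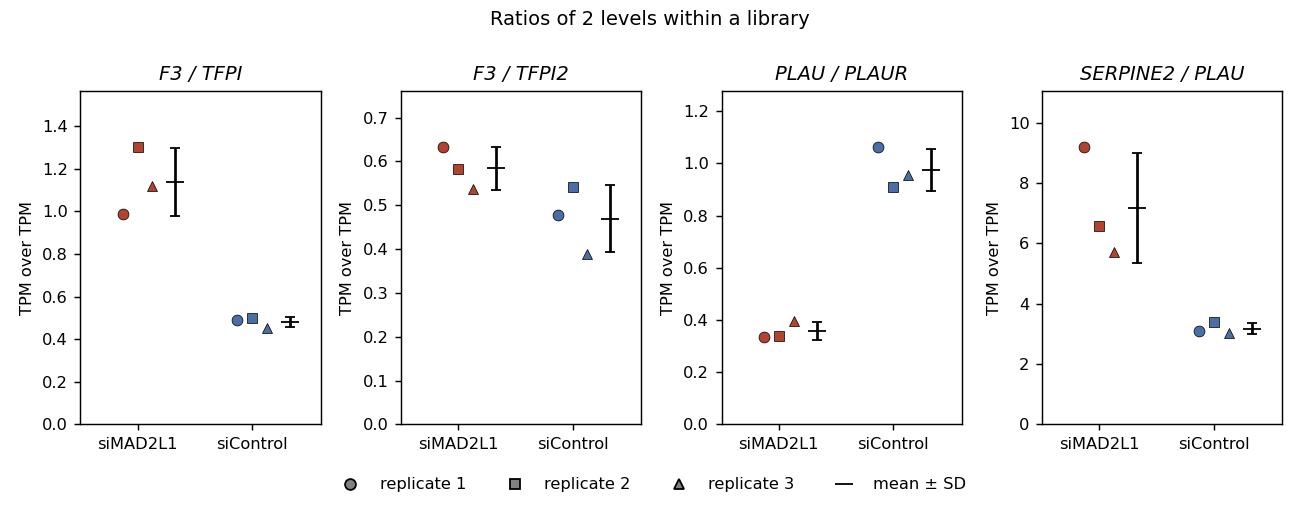
Ratio of the TPM of 2 genes within each library, siMAD2L1 left of siControl, with the mean and SD (n = 3) beside the replicates. F3 over TFPI and SERPINE2 over PLAU lie higher in every siMAD2L1 library, PLAU over PLAUR lies lower, and F3 over TFPI2 overlaps.

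The 4 calls held under each of 19 other settings. The log2 fold change ranged from 1.30 to 1.88 for F3, from 1.07 to 1.44 for TFPI2, from 0.67 to 0.81 for PLAUR and from -0.86 to -0.62 for PLAU. With TPM rescaled without mitochondrial genes and the 20 highest genes, F3 was at 1.46, TFPI2 at 1.15, PLAUR at 0.68 and PLAU at -0.77. The highest adjusted p was 0.0253 for F3 and 0.0349 for PLAU, both without siControl replicate 1, and 0.0191 for TFPI2 and 0.0282 for PLAUR, both for siMAD2L1 replicate 1 alone.

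**Figure D3:**
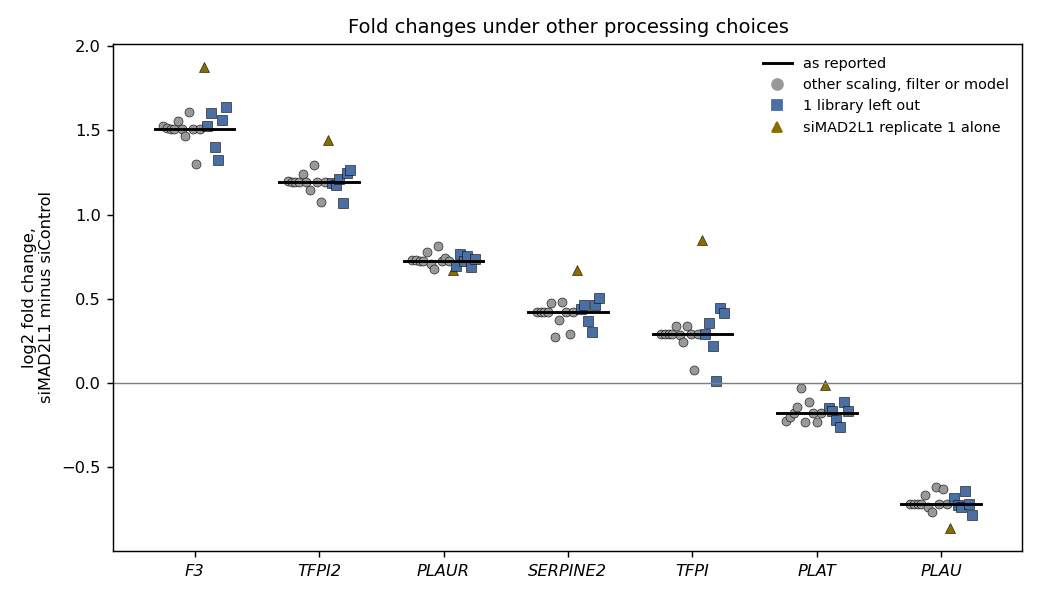
Log2 fold change of the 7 tested members as reported (black line), with other scaling, filter or model (grey circles), with 1 library left out (blue squares) and for siMAD2L1 replicate 1 alone against siControl (triangles). F3, TFPI2 and PLAUR stay well above 0 and PLAU below it, while TFPI comes close to 0 without siMAD2L1 replicate 1.

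**Figure D4:**
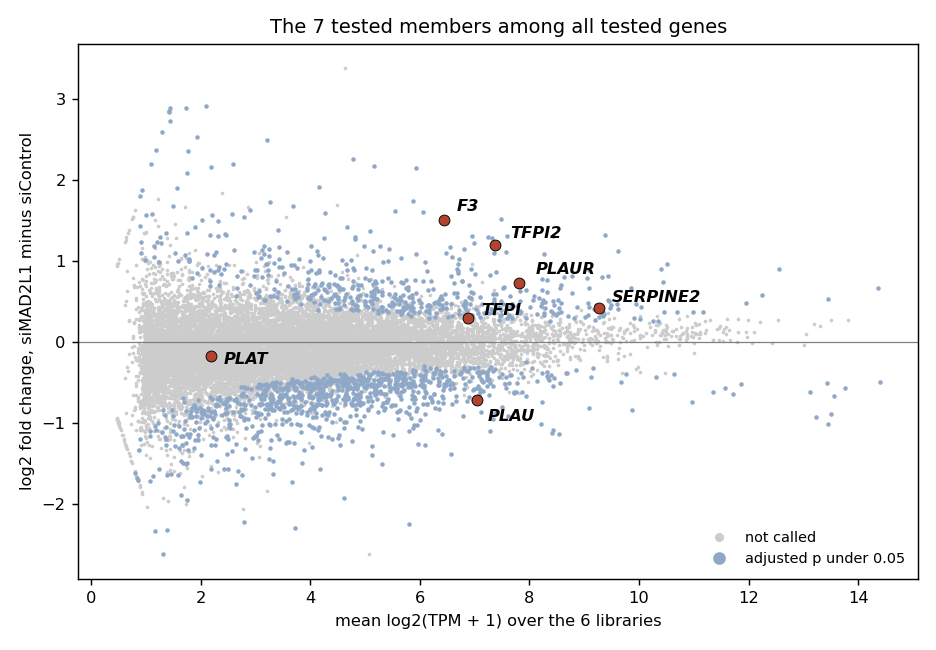
Log2 fold change (siMAD2L1 minus siControl) against mean log2(TPM + 1) for the 14790 tested genes, with called genes in blue and the 7 tested members in red. F3 at 1.51, TFPI2 at 1.19 and PLAUR at 0.73 lie above the bulk of genes of like level, PLAU at -0.72 below it, and PLAT sits inside it at a low level.

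The other genes of clotting and plasminogen activation came from 5 lists with 51 genes beside the 8. Of these 51 genes 23 passed the filter, of which 4 were called higher, 4 lower and 15 not, against 9.78% called over all tested genes. Their median log2 fold change was -0.05, and -0.08 over all tested genes. The lists were chosen with earlier results of these data known, so these counts show nothing particular to the listed genes. Members included, the clotting cascade list had 7 of 19 genes tested, with 2 higher and 3 lower. The clotting inhibitors had 5 of 11 tested, with 1 higher and 1 lower. The activators and binding partners had 10 of 14 tested, with 2 higher and 1 lower. The list of inhibitors of plasminogen activation and plasmin had 6 of 11 tested, with 2 higher, SERPINB8 among them, and none lower. The protease-activated receptors had 2 of 4 tested, with no call. The 28 under the filter include prothrombin (F2), factors VII, IX and X, protein C (PROC) and antithrombin (SERPINC1), named here after their values were seen, and factor VII (F7) and factor IX (F9) were listed at 0 in every library. Plasminogen (PLG), the substrate of both activators, stayed at or below 0.168 TPM in every library.

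The 3 fibrinogen chains, the precursor of the clot's fibrin, fell. FGA measured 1.28, 0.699 and 0.826 TPM in siMAD2L1 and 3.82, 4.18 and 5.33 TPM in siControl (log2 fold change -1.50, SE 0.215, limma adjusted p = 0.00691). Its siMAD2L1 mean was 0.933 TPM, so it passed the filter of 1 TPM through its siControl level. At such levels the size depends on the added 1, and with 0.1 added instead the log2 fold change was -2.16. FGB averaged 2.77 ± 0.741 TPM in siMAD2L1 and 7.42 ± 1.13 TPM in siControl (SD, n = 3 each; -1.17, limma adjusted p = 0.0142). FGG averaged 5.29 ± 2.60 TPM in siMAD2L1 and 15.7 ± 1.37 TPM in siControl (SD, n = 3 each; -1.48, limma adjusted p = 0.0142). None of the 3 overlapped between the groups, as was true of 32.8% of all tested genes. Without siControl replicate 1, 2 or 3 the adjusted p of FGB was 0.0778, 0.0589 and 0.0576 and that of FGG 0.0644, 0.0698 and 0.0672. Without siMAD2L1 replicate 3 that of FGG was 0.0541. FGB and FGG each lost the call in 6 of 19 settings, among them the fit with no filter (adjusted p = 0.0514 for FGB and 0.0567 for FGG). SERPINA5, an inhibitor of activated protein C and of urokinase, fell as well, with 4.30 ± 0.552 TPM in siMAD2L1 and 9.21 ± 0.721 TPM in siControl (SD, n = 3 each; -0.95, limma adjusted p = 0.0101). Its adjusted p was 0.0660 and 0.0543 without siControl replicate 1 or 2.

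Of the list genes called higher, SERPINB8, VKORC1 and S100A10 each lost the call in 10 or more of 19 settings. SERPINB8, a serpin of the intracellular group, averaged 25.3 ± 5.70 TPM in siMAD2L1 and 14.9 ± 1.93 TPM in siControl (SD, n = 3 each; log2 fold change 0.71, limma adjusted p = 0.0464). VKORC1, which recycles vitamin K for the clotting factors, averaged 415 ± 46.9 TPM in siMAD2L1 and 323 ± 9.09 TPM in siControl (SD, n = 3 each; 0.35, limma adjusted p = 0.0457). S100A10, which forms a plasminogen-binding complex with annexin A2, averaged 1143 ± 44.5 TPM in siMAD2L1 and 943 ± 36.6 TPM in siControl (SD, n = 3 each; 0.28, limma adjusted p = 0.0370). Without siControl replicate 1, 2 or 3 the adjusted p was 0.143, 0.0964 and 0.159 for SERPINB8, 0.167, 0.107 and 0.145 for VKORC1, and 0.160, 0.0681 and 0.140 for S100A10. Without siMAD2L1 replicate 1 that of SERPINB8 was 0.0616. Without siMAD2L1 replicate 2 it was 0.0859 for VKORC1 and 0.0948 for S100A10, and without siMAD2L1 replicate 3 it was 0.137 for SERPINB8, 0.0947 for VKORC1 and 0.0922 for S100A10.

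ANXA2 and ENO1, abundant proteins that bind plasminogen at the cell surface, did not pass. ANXA2 averaged 1683 ± 30.1 TPM in siMAD2L1 and 1726 ± 3.32 TPM in siControl (SD, n = 3 each; log2 fold change -0.04, limma adjusted p = 0.735). ENO1 averaged 3274 ± 240.1 TPM in siMAD2L1 and 3230 ± 143 TPM in siControl (SD, n = 3 each; 0.02, limma adjusted p = 0.906). Of the protease-activated receptors, F2R, the thrombin receptor, measured 19.8, 8.71 and 12.8 TPM in siMAD2L1 and 16.2, 16.6 and 16.0 TPM in siControl and did not pass (-0.29, limma adjusted p = 0.501). It was at -0.57 (adjusted p = 0.0539) without siMAD2L1 replicate 1 and at -0.02 (adjusted p = 0.955) without siMAD2L1 replicate 2. F2RL1, which proteases other than thrombin cleave, measured 17.4, 12.3 and 12.1 TPM in siMAD2L1 and 19.97, 17.96 and 18.03 TPM in siControl (-0.41, limma adjusted p = 0.137). It passed without siMAD2L1 replicate 1 (-0.57, adjusted p = 0.0144) and with library weights (-0.59, limma adjusted p = 0.00312). The other 11 tested list genes were not called, with log2 fold changes between -0.21 and 0.45.

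**Figure D5:**
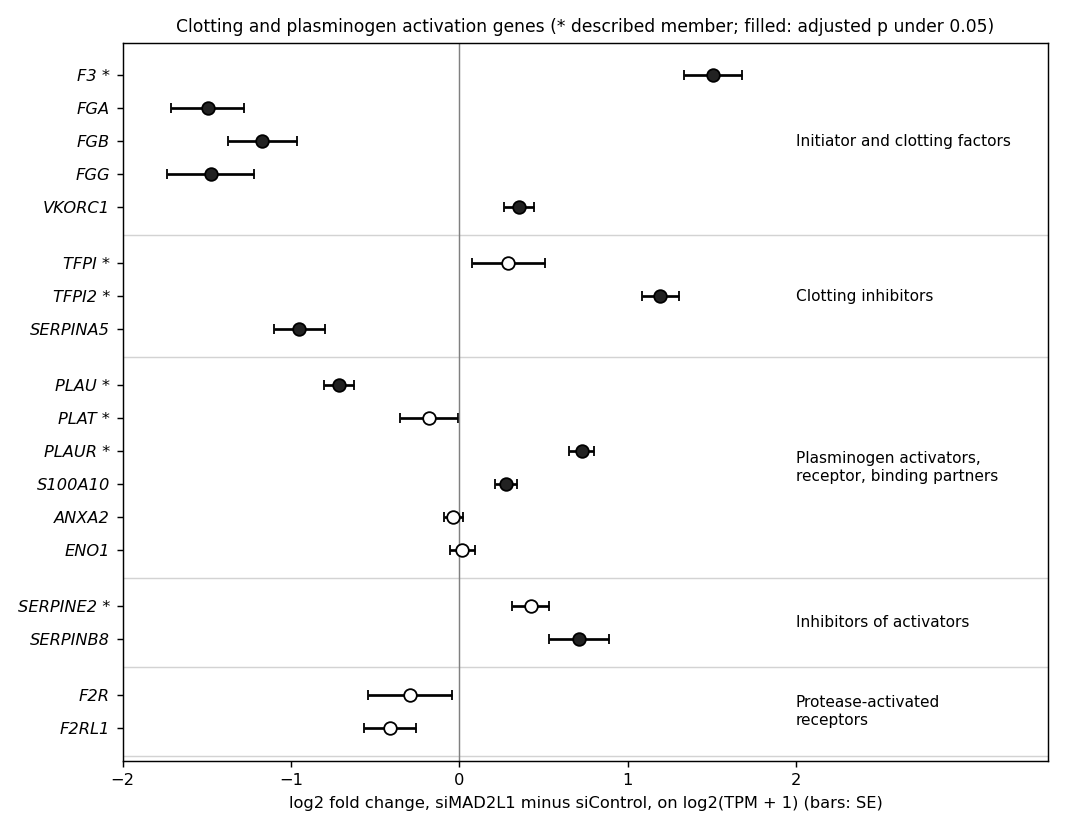
Log2 fold change (siMAD2L1 minus siControl) with its SE for the tested members (asterisk) and the tested list genes named in the text, grouped by list. THBD and the named list genes under the filter are not drawn. The group that holds SERPINB8 is a list label, and what SERPINB8 inhibits was not measured. Filled symbols are called at an adjusted p under 0.05. F3 at 1.51 lies opposite the fibrinogen chains at -1.50 to -1.17, and PLAUR opposite PLAU.

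Monocytes and endothelium also express several of these genes, so their markers were read beside them. Of 6 monocyte and macrophage markers 3 had a mean of at least 1 TPM, and their sum was 129 to 150 TPM in siMAD2L1 and 69.9 to 77.3 TPM in siControl. Almost all of that sum was CD68, a lysosomal protein found in many cell types, at 137 TPM in siMAD2L1 and 65.8 TPM in siControl. CD68 was called higher (limma adjusted p = 0.00114). The leukocyte marker PTPRC stayed at or below 0.06 TPM in every library and the monocyte marker CSF1R at or below 0.162 TPM. CD14 averaged 3.43 TPM in siMAD2L1 and 7.50 TPM in siControl and did not pass (limma adjusted p = 0.0851). The endothelial receptor TEK was listed at 0 in every library. Of 5 platelet markers 1 reached a mean of 1 TPM, and their sum was 1.23 to 1.95 TPM in siMAD2L1 and 2.27 to 3.18 TPM in siControl. The hepatocyte markers summed to 5.48 to 7.86 TPM in siMAD2L1 and 10.1 to 13.9 TPM in siControl. That difference lay mostly in transferrin (TF), at 3.98 TPM in siMAD2L1 and 8.83 TPM in siControl (limma adjusted p = 0.0181), while SERPINA1 averaged 1.72 TPM in siMAD2L1 and 1.88 TPM in siControl and did not pass (adjusted p = 0.821). The 5 epithelial markers, of which 4 reached a mean of 1 TPM, summed to 279 to 309 TPM in siMAD2L1 and 411 to 426 TPM in siControl. Nearly all of that sum was KRT8, at 163 TPM in siMAD2L1 and 222 TPM in siControl, and KRT18, at 133 TPM in siMAD2L1 and 194 TPM in siControl. KRT8 and KRT18 were called lower (limma adjusted p = 0.0101 and 0.00661), while CDH1 and KRT19 did not pass (adjusted p = 0.406 and 0.961). The part of these shifts in the results was not tested.

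For the 4 called members the tested genes with the most similar profile were sought, by the root mean square difference between log2(TPM + 1) profiles over the 6 libraries, each centred on its mean. F3 was closest to MMP1, the interstitial collagenase, at a difference of 0.0667, with 305 TPM in siMAD2L1 and 105 TPM in siControl. ANXA10 (0.111) and the integrin subunit ITGB3 (0.118) came next. TFPI2 was closest to UAP1 (0.0632), an enzyme of nucleotide sugar synthesis, then to MCL1 (0.0788) and KLF6 (0.0882). PLAU was closest to the mitochondrially encoded MT-CO1 (0.0407), with TRIP6 (0.0439) also among its 3 nearest, and PLAUR to ASL (0.0406), TPRG1L (0.0434) and IER3 (0.0449). These distances cover 6 libraries in 2 groups and describe likeness only.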

How the data were processed

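RNA of 6 libraries was compared. Total RNA was extracted with Trizol and libraries were made with an NEBNext Ultra kit, per the labels' protocols. The authors deposited 1 table of TPM. The submitters' processing notes name fastp, HISAT2, DESeq2 1.16.1 and hg38 among the tools and builds used. No source used here gives the read counter, annotation or strand setting. TPM keep no library depth, so counting error could not be given.

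From the TPM, log2(TPM + 1) was taken for the 14790 genes with a mean of at least 1 TPM. limma 3.58.1 (R 4.3.3) with an intensity trend was fitted to siMAD2L1 against siControl over all of them. Groups follow the titles, and columns named NC or MAD were matched by number. The fit was tested on simulated libraries with independent noise for each gene and no library-wide shift. That check does not cover shifts of a whole library such as siMAD2L1 replicate 1. Positions and overlaps came from GENCODE 29, promoter sequences from RefSeq. The members, the 5 lists and the alternatives were chosen with earlier results of these data known. Text names all members, each called list gene, the 2 highest of each list, PLG, the 3 nearest profiles per called member and genes overlapping a member, but some items under this rule are not reported here. Python 3.11.15 and matplotlib 3.10.9 were used for motifs and plots. Alternatives covered the pseudocount, filter, scaling, trend, weights, threshold, replicate block and each library left out.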

Additional observations from a re-analysis of the deposited data

How the results depend on the processing

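Calls over all genes numbered 1446, and 727 with no filter, 952 without a trend, 4860 with library weights, 359 at an adjusted p under 0.01, and between 326 (siControl replicate 1 left out) and 2422 (siMAD2L1 replicate 1 left out). Lower genes made up 63.7% of the calls, but 52.5% with upper-quartile scaling, 50.5% with quantile normalization, 43.8% with a transcript-length trend removed, 73.2% when rescaled without mitochondrial and the 20 highest genes, 45.2% for siMAD2L1 replicate 1 alone, and 52.1% to 70.4% with a library left out. The labels state no pairing by replicate number, and the same-number correlations of deviations were low (0.0190, 0.00898 and 0.0631). Of the siMAD2L1 libraries, replicates 2 and 3 correlated best with their own number in siControl, and replicate 1 with siControl replicate 2. Deviations centred within groups of 3 depend on each other, so these correlations could not decide whether the libraries were paired. With a replicate block 868 genes were called. Of the pathway list genes other than the members 8 were called, and 3 with no filter, 5 without mitochondrial and the 20 highest genes, 5 without a trend, 5 with the replicate block, 2 at an adjusted p under 0.01, 5 for siMAD2L1 replicate 1 alone, and 2 to 8 with a library left out. F3, TFPI2, PLAUR and PLAU kept direction and call in all 19 alternatives, and PLAT stayed uncalled in the 18 that tested it. TFPI passed for siMAD2L1 replicate 1 alone (0.85). SERPINE2 passed at a filter of 5 TPM (0.42), with upper-quartile scaling (0.47), with the length trend removed (0.48), with library weights (0.29) and for siMAD2L1 replicate 1 alone (0.67), and ranged from 0.30 to 0.50 with a library left out. MAD2L1 (-2.22) missed an adjusted p of 0.01 and ranged from -2.61 to -1.80 with a library left out. Among uncalled genes the sign turned for ANXA2 (0.0143 with upper-quartile scaling, 0.0216 with the length trend removed), ENO1 (-0.0304 without mitochondrial and the 20 highest genes, -0.0928 for siMAD2L1 replicate 1 alone, -0.0324 to 0.0736 with a library left out) and F2R (0.272 for siMAD2L1 replicate 1 alone). The fit on siMAD2L1 replicate 1 alone assumes that this library varies like the controls. The causes of these shifts were not tested.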
